A study of Mus musculus with 18 samples.

Results

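The proteasome genes described here were chosen by name: every probe set that maps to 1 gene whose symbol begins with Psma, Psmb, Psmc, Psmd, Psme, Psmf or Psmg and a number. The rule found 47 genes with 74 probe sets, of 17097 genes and 45037 probe sets in the series. Of these genes, 45 belong to the proteasome and 43 passed a filter on low values, which kept probe sets whose mean over the 18 arrays was above 5.95 on the log2 scale. Psma8, an alpha subunit known from testis, and Psmb11, a subunit known from the thymus, did not pass. Psmc3ip, a meiotic recombination factor, and Psme3ip1, which binds the PA28 gamma activator, match the rule by name only and are kept apart. A gene with several probe sets is represented by the one with the highest mean over the 18 arrays.

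RNA came from 6 mice aged 6 weeks, 3 TgCPEB4∆4 mice and 3 CTRL mice, whose cortex and striatum were taken as 1 piece of tissue. TgCPEB4∆4 mice carry a transgene for the ∆4 form of CPEB4, a protein that binds cytoplasmic polyadenylation elements; the labels name neither its promoter and the cells that express it, nor strain and sex. Each mouse gave 3 arrays. ELUTED holds the RNA released from poly(U) agarose by 90% formamide and is enriched for long poly(A) tails, WASH holds the RNA released by 25% formamide and is enriched for short tails, and INPUT is total RNA. The difference ELUTED minus WASH within a mouse, in log2 units, is called the tail ratio below, and a negative value means that an mRNA was more abundant among the short-tailed RNA relative to the rest of each array. It is a ratio of 2 normalized array values, not a tail length.

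The 26S proteasome degrades proteins tagged with ubiquitin. Its 20S core is a barrel of alpha rings, which gate the entrance, and beta rings, which hold the protease sites, and its 19S cap has a base with ATPases that unfold the substrate and a lid that removes ubiquitin. Interferon induces alternative beta subunits, which form the immunoproteasome, and the PA28 activators, while dedicated assembly factors build the core and the base. In neurons the proteasome takes part in synaptic protein turnover.

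Array quality differed in 1 respect that touches the results. The ELUTED arrays of CTRL mouse 1 and CTRL mouse 3 stood apart: over all genes tested, the tail ratio had an SD of 0.53, 0.55 and 0.33 in the TgCPEB4∆4 mice and of 1.13, 0.52 and 0.82 in CTRL mice 1, 2 and 3. Of the 43 proteasome genes, 43, 41 and 43 exceeded the brightest nonspecific control on the ELUTED arrays of the TgCPEB4∆4 mice and 27, 43 and 40 on those of the CTRL mice, while all 43 did on the 6 WASH arrays. The 3' minus the 5' Actb control probe set, a sign of RNA quality, lay between -0.745 and -0.695 on the ELUTED arrays of the TgCPEB4∆4 mice and was -1.08, -0.66 and -0.96 on those of the CTRL mice. On the INPUT arrays it lay between -0.943 and -0.746. The same difference for Gapdh in ELUTED was -0.148, -0.145 and -0.128 in the TgCPEB4∆4 mice and 0.151, -0.179 and -0.115 in the CTRL mice. By Gapdh, CTRL mouse 3 thus lay near the TgCPEB4∆4 mice. Neuronal markers were high on all INPUT arrays, with the mean of 12 markers between 11.07 and 11.33, and the mean of 7 striatal markers lay between 9.22 and 9.58. Calls and medians over all 43 genes that use the CTRL tail ratio are therefore also given with CTRL mouse 2 as the only control. This setting was chosen after the arrays had been seen, and the lone mouse is assumed to vary like the others. Counts by role and adjusted p-values of single genes, by limma, rest on CTRL mice 1, 2 and 3 together and were not given in that setting.

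**Figure D1:**
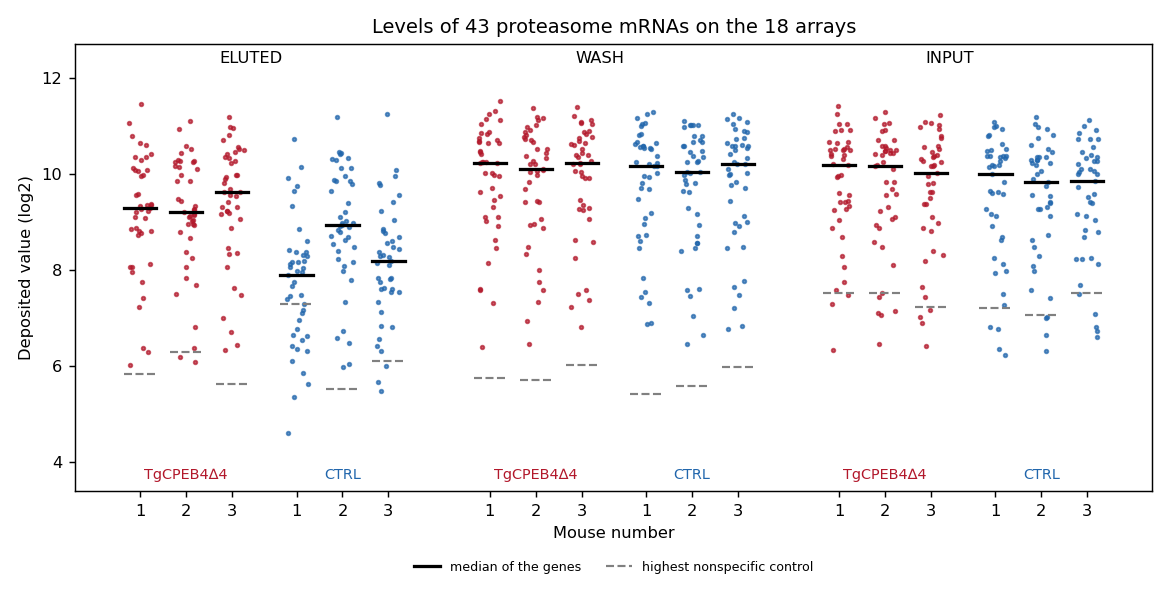
Deposited log2 values (vertical axis) of the 43 proteasome genes on each of the 18 arrays, by preparation, genotype and mouse number; each point is a gene, the black line the median of the genes and the dashed line the highest nonspecific control probe set. In ELUTED the median was 9.30, 9.21 and 9.62 in the TgCPEB4∆4 mice and 7.89, 8.94 and 8.19 in the CTRL mice, while in WASH and INPUT all medians lay between 9.84 and 10.23.

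Proteasome mRNAs sat on the short-tailed side in both genotypes. The tail ratio was below 0 for 41 of 43 genes in the TgCPEB4∆4 mice and for 41 of 43 in the CTRL mice. Of all 11974 genes tested, 7723 were below 0 in the TgCPEB4∆4 mice and 7103 in the CTRL mice. With limma across all 27022 probe sets that passed the filter and Benjamini-Hochberg adjusted p under 0.05, 14 of 43 genes were lower in ELUTED than in WASH in the TgCPEB4∆4 mice, where 20.5% of all genes tested were, and none was higher, where 6.5% were. In the CTRL mice 38 of 43 were lower, against 39.9% of all genes tested, and 1 was higher, against 20.5%. The median tail ratio of the 43 genes was -0.60 in the TgCPEB4∆4 mice and -1.39 in the CTRL mice, which correspond to ELUTED values of 0.659 and 0.381 of those in WASH; the medians of all genes tested were -0.17 and -0.18.

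Mouse by mouse, the median tail ratio of the 43 genes was -0.60, -0.61 and -0.42 in the TgCPEB4∆4 mice, against -2.19, -0.64 and -1.64 in CTRL mice 1, 2 and 3. CTRL mouse 2 thus lay close to the transgenic mice and the other CTRL mice lay far below. The median proteasome gene stood at percentile 21.5, 23.4 and 18.2 of all genes tested in the TgCPEB4∆4 mice and at percentile 7.83, 19.1 and 6.78 in the CTRL mice. In each of the 6 mice 40 to 42 of the 43 genes had a negative tail ratio. The median of all genes tested was negative in each mouse too, between -0.226 and -0.115. Across the 43 genes the mean tail ratios of the 2 genotypes had a Pearson correlation of 0.70 and a Spearman correlation of 0.72, and over all 11974 genes tested 0.86 and 0.88; genes share arrays and normalization and are not independent replicates.

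How many transgenic calls were made depended on single mice and on the spread assumed. Without TgCPEB4∆4 mouse 1 or without TgCPEB4∆4 mouse 2 no gene was called, nor any of all genes tested. The transgenic count was 25 without CTRL mouse 1 and 23 without CTRL mouse 2, against 33.7% and 25.8% of all genes tested. It was 32 with the TgCPEB4∆4 mice fitted alone, against 36.7%, and 8 after a second quantile normalization, against 8.13%. With CTRL mouse 2 as the only control, 22 of the 43 genes were called lower in CTRL, against 18.2% of all genes tested, with a median of -0.64. Centring every array on its median, which took the median of all genes tested to 0.01 in both genotypes, left 38 of 43 genes below 0 in the TgCPEB4∆4 mice and 39 of 43 in the CTRL mice. That centring called 11 and 35 genes lower, against 10.7% and 31.6% of all genes tested, and the share of higher calls among all calls over all genes was 56.2% instead of 24.1% in the TgCPEB4∆4 mice and 49.5% instead of 34.0% in the CTRL mice.

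**Figure D2:**
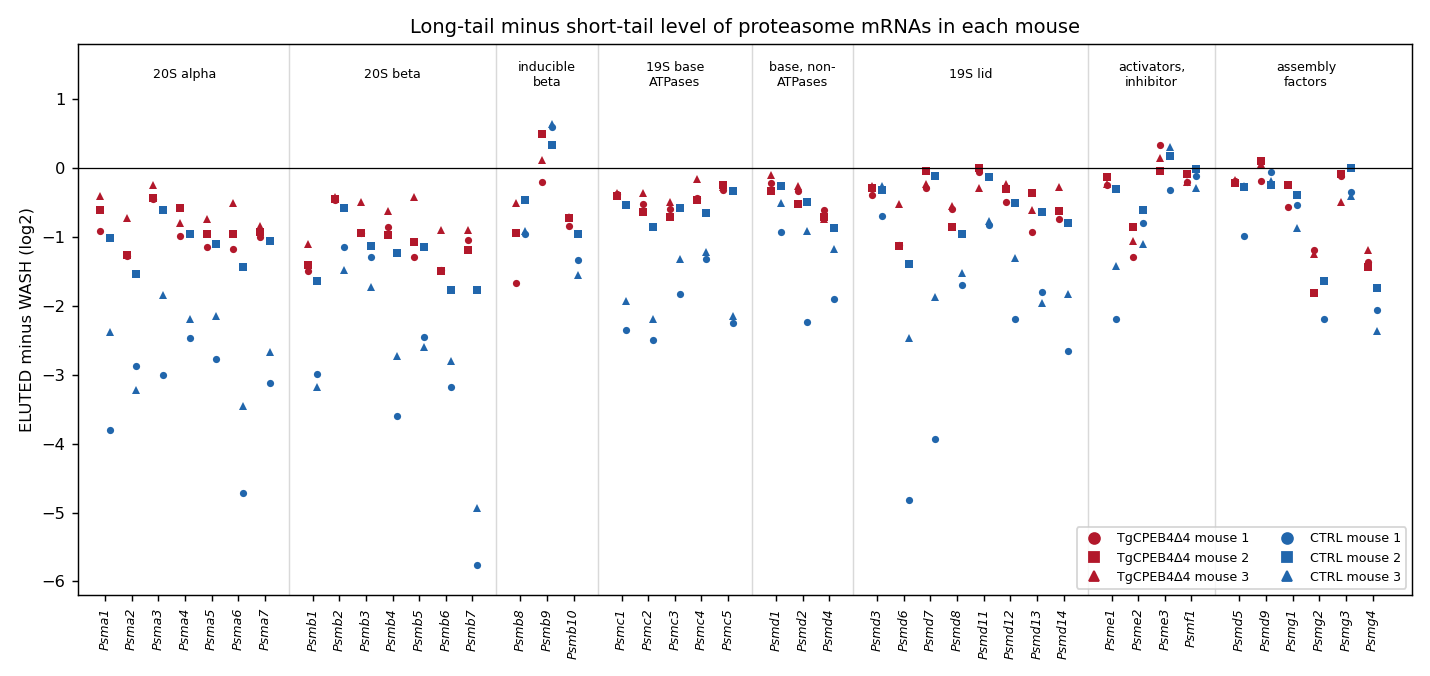
ELUTED minus WASH in log2 units (vertical axis) for each of the 43 proteasome genes, grouped by role along the horizontal axis; each point is a mouse, with the TgCPEB4∆4 mice at the left and the CTRL mice at the right of each gene. The points of CTRL mouse 2 (squares) lie near those of the TgCPEB4∆4 mice, and those of CTRL mice 1 and 3 reach -5.76 and -4.93 at Psmb7; Psmb9 lies above 0 in 5 of 6 mice.

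By role, the alpha ring and the constitutive beta ring had the lowest median tail ratios in both genotypes, while single assembly factors were as low in the TgCPEB4∆4 mice. All 7 alpha ring genes that passed the filter were below 0 in all 6 mice, with a median of -0.88 in the TgCPEB4∆4 mice and -2.28 in the CTRL mice. Of these, 3 of 7 were called lower in the TgCPEB4∆4 mice and 7 of 7 in the CTRL mice, against 20.5% and 39.9% of all genes tested. Psma6 had the lowest mean of the alpha genes over the 6 mice. Its ELUTED value was 9.57, 9.48 and 9.89 in the TgCPEB4∆4 mice and 5.87, 8.94 and 7.12 in the CTRL mice. In WASH its 6 values lay between 10.378 and 10.745 and the genotypes overlapped, so the wide spread of the CTRL mice was in ELUTED. The tail ratio of Psma6 was -0.88 in the TgCPEB4∆4 mice (SE 0.49, adjusted p = 0.189) and -3.20 in the CTRL mice (SE 0.49, adjusted p = 0.00125). With ELUTED values under the brightest nonspecific control raised to it, the CTRL mean of Psma6 was -2.72. Psma3 had the highest mean among the alpha genes, with tail ratios of -0.45, -0.43 and -0.25 in the TgCPEB4∆4 mice and -3.01, -0.61 and -1.85 in the CTRL mice. Its mean was -0.37 in the TgCPEB4∆4 mice (adjusted p = 0.433) and -1.82 in the CTRL mice (adjusted p = 0.0034).

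Among the 7 constitutive beta ring genes the median tail ratio was -0.92 in the TgCPEB4∆4 mice and -2.52 in the CTRL mice. In the TgCPEB4∆4 mice 4 were called lower and in the CTRL mice all 7, against 20.5% and 39.9% of all genes tested. Psmb7, the trypsin-like beta2 subunit, had the lowest mean of the 7 over the 6 mice. Its ELUTED value was 9.21, 9.15 and 9.54 in the TgCPEB4∆4 mice and 4.62, 8.48 and 5.47 in the CTRL mice, and 2 of the CTRL values lay under the highest nonspecific control of their array. In WASH it measured 10.25, 10.34 and 10.43 in the TgCPEB4∆4 mice and 10.38, 10.25 and 10.40 in the CTRL mice. The genotypes overlapped in WASH and did not in ELUTED, and CTRL mouse 2 lay closest to the transgenic mice. Its tail ratio was -1.04 ± 0.15 in the TgCPEB4∆4 mice and -4.15 ± 2.10 in the CTRL mice (SD, n = 3 each), with adjusted p of 0.208 and 0.00109 by limma. That fit used 1 estimate of the spread for both genotypes, so neither p-value reflects the SD of its own genotype alone. Since 1 of the 3 CTRL ELUTED arrays measured Psmb7 above background, its CTRL mean is uncertain, and it was -3.05 with the other ELUTED values raised to the brightest nonspecific control.

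The other catalytic subunits of the constitutive core were lower in ELUTED in both genotypes. Psmb5, the chymotrypsin-like beta5 subunit, had ELUTED values of 9.56, 9.84 and 10.33 in the TgCPEB4∆4 mice and 8.38, 9.63 and 8.28 in the CTRL mice, against 10.75 to 10.91 in WASH over all 6 mice. Its tail ratio was -0.92 (adjusted p = 0.0396) in the TgCPEB4∆4 mice and -2.07 (adjusted p = 0.000894) in the CTRL mice. Psmb6, the caspase-like beta1 subunit, had tail ratios of -1.48, -1.50 and -0.90 in the TgCPEB4∆4 mice and -3.17, -1.76 and -2.80 in the CTRL mice. The genotypes did not overlap for Psmb6, and the means were -1.29 (adjusted p = 0.00995) in the TgCPEB4∆4 mice and -2.58 (adjusted p = 0.000466) in the CTRL mice. Psmb2, a beta subunit without a protease site, had the least negative mean of the 7 over the 6 mice, at -0.445 in the TgCPEB4∆4 mice (adjusted p = 0.0784) and -1.07 in the CTRL mice (adjusted p = 0.00151).

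The inducible beta subunits differed among themselves. Psmb10, the beta2i subunit, had negative tail ratios in all mice, of -0.84, -0.72 and -0.71 in the TgCPEB4∆4 mice and -1.34, -0.96 and -1.55 in the CTRL mice. Both means passed the test, at -0.76 (adjusted p = 0.00886) in the TgCPEB4∆4 mice and -1.28 (adjusted p = 0.000552) in the CTRL mice. Psmb8, the beta5i subunit, measured -1.67, -0.94 and -0.51 in the TgCPEB4∆4 mice and -0.96, -0.46 and -0.91 in the CTRL mice, so that the genotypes overlapped. Its means were -1.04 (adjusted p = 0.0114) and -0.78 (adjusted p = 0.0137). With ELUTED values under the brightest nonspecific control raised to it, the CTRL mean of Psmb8 was -0.46. Psmb9, the beta1i subunit, went the other way, with tail ratios of -0.20, 0.50 and 0.11 in the TgCPEB4∆4 mice and 0.59, 0.34 and 0.64 in the CTRL mice. It was not called in the TgCPEB4∆4 mice, at 0.14 (adjusted p = 0.517), and was the 1 proteasome gene called higher in ELUTED in the CTRL mice, at 0.52 (SE 0.16, adjusted p = 0.0194). Its 3 probe sets all had a positive mean tail ratio over the 6 mice. The transgenic mean of Psmb9 was -0.04 without TgCPEB4∆4 mouse 2.

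In the 19S base, the 5 ATPase genes had a median tail ratio of -0.38 in the TgCPEB4∆4 mice, with none called, and -1.57 in the CTRL mice, with all 5 called lower. At an unadjusted p under 0.05, limma gave 1 of the 5 lower in the TgCPEB4∆4 mice, where 3585 of 11974 genes tested were. The adjusted calls of the base genes stand beside 20.5% of all genes tested called lower in the TgCPEB4∆4 mice and 39.9% in the CTRL mice. Psmc2, the Rpt1 ATPase, had the lowest mean of the 5 over the 6 mice, with tail ratios of -0.52, -0.64 and -0.36 in the TgCPEB4∆4 mice and -2.50, -0.85 and -2.19 in the CTRL mice. Its mean was -0.51 (adjusted p = 0.179) in the TgCPEB4∆4 mice and -1.85 (adjusted p = 0.00114) in the CTRL mice. Psmc4, the Rpt3 ATPase, had the highest mean over the 6 mice, at -0.35 (adjusted p = 0.122) in the TgCPEB4∆4 mice and -1.06 (adjusted p = 0.0012) in the CTRL mice. This rank depends on the probe set. The other tested probe set of Psmc4 was at -0.57 in the TgCPEB4∆4 mice and -1.72 in the CTRL mice. Its mean over the 6 mice was -1.15, below that of Psmc1, at -0.99. Of the 3 base genes without ATPase activity, 1 was called lower in the TgCPEB4∆4 mice and all 3 in the CTRL mice. Psmd4, the Rpn10 ubiquitin receptor, was called in both, at -0.69 (adjusted p = 0.0276) in the TgCPEB4∆4 mice and -1.32 (adjusted p = 0.001) in the CTRL mice. Psmd1, the Rpn2 scaffold, was -0.22 (adjusted p = 0.283) in the TgCPEB4∆4 mice and -0.57 (adjusted p = 0.0118) in the CTRL mice.

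The 8 lid genes had a median tail ratio of -0.44 in the TgCPEB4∆4 mice and -1.43 in the CTRL mice. In the TgCPEB4∆4 mice 1 was called lower and in the CTRL mice all 8, against 20.5% and 39.9% of all genes tested. By the probe sets with the highest mean, the gene called in both was Psmd8, the Rpn12 subunit. It was at -0.66 (adjusted p = 0.0201) in the TgCPEB4∆4 mice and -1.39 (adjusted p = 0.000596) in the CTRL mice. Psmd6, the Rpn7 subunit, had the lowest mean of the lid genes over the 6 mice. In ELUTED it measured 8.85, 8.95 and 9.69 in the TgCPEB4∆4 mice and 5.35, 8.62 and 7.63 in the CTRL mice, while the 6 WASH values lay between 9.97 and 10.20. Its tail ratio was -0.93 (adjusted p = 0.192) in the TgCPEB4∆4 mice and -2.89 (adjusted p = 0.00228) in the CTRL mice. With ELUTED values under the brightest nonspecific control raised to it, the CTRL mean of Psmd6 was -2.24. The other tested probe set of Psmd6 was called lower in both genotypes by limma. It was at -1.05 (adjusted p = 0.0422) in the TgCPEB4∆4 mice and -2.41 (adjusted p = 0.000895) in the CTRL mice. Psmd14, the Rpn11 deubiquitinase, was -0.54 (adjusted p = 0.181) in the TgCPEB4∆4 mice and -1.76 (adjusted p = 0.00176) in the CTRL mice. Psmd11, the Rpn6 subunit, had the mean closest to 0, at -0.11 (adjusted p = 0.601) in the TgCPEB4∆4 mice and -0.58 (adjusted p = 0.0148) in the CTRL mice, and its other tested probe sets gave means on both sides of 0.

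Activators and assembly factors had medians closer to 0 than the core. Over the activators and the inhibitor Psmf1 the median tail ratio was -0.18 in the TgCPEB4∆4 mice and -0.49 in the CTRL mice. Of the 4 genes, 1 was called lower in the TgCPEB4∆4 mice and 2 in the CTRL mice, against 20.5% and 39.9% of all genes tested. Psme1, the PA28 alpha subunit, was -0.25, -0.13 and -0.23 in the TgCPEB4∆4 mice and -2.19, -0.30 and -1.43 in the CTRL mice. Psme2, its PA28 beta partner, was -1.29, -0.85 and -1.06 in the TgCPEB4∆4 mice and -0.80, -0.61 and -1.10 in the CTRL mice. In the TgCPEB4∆4 mice Psme2 passed the test at -1.07 (adjusted p = 0.00443) and Psme1 did not, at -0.20 (adjusted p = 0.61); the difference between the 2 genes was not tested. In the CTRL mice both passed, Psme1 at -1.31 (adjusted p = 0.00573) and Psme2 at -0.84 (adjusted p = 0.00208). Psme2 exceeded the brightest nonspecific control on 2 of 3 TgCPEB4∆4 and 1 of 3 CTRL ELUTED arrays. With the other ELUTED values raised to that control, its mean was -0.996 in the TgCPEB4∆4 mice and -0.29 in the CTRL mice. Psme1 exceeded the control on 2 of 3 CTRL ELUTED arrays, and its raised CTRL mean was -1.13. The raised means were not tested. Psme3, the PA28 gamma subunit of the nucleus, was 0.14 (adjusted p = 0.484) in the TgCPEB4∆4 mice and 0.05 (adjusted p = 0.791) in the CTRL mice, and its 2 probe sets had means of opposite sign.

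Among the 6 assembly factors, 2 were called lower in the TgCPEB4∆4 mice and 4 in the CTRL mice, against 20.5% and 39.9% of all genes tested. Their median tail ratio was -0.29 and -0.55. Psmg4, the PAC4 chaperone of the core, had ELUTED values of 7.75, 7.50 and 8.07 in the TgCPEB4∆4 mice and 6.66, 6.72 and 6.55 in the CTRL mice. Its WASH values were 9.11, 8.93 and 9.26 in the TgCPEB4∆4 mice and 8.72, 8.46 and 8.92 in the CTRL mice. All 6 mice held less of it in ELUTED by more than 1 log2 unit, including CTRL mouse 2, at -1.74. The tail ratio was -1.33 ± 0.12 (adjusted p = 0.00328) in the TgCPEB4∆4 mice and -2.05 ± 0.31 (adjusted p = 0.00045) in the CTRL mice (SD, n = 3 each, limma). The p-values use the spread shared by both genotypes. With ELUTED values under the brightest nonspecific control raised to it, the CTRL mean of Psmg4 was -1.84. Psmg2, the PAC2 chaperone, was also lower in ELUTED, at -1.42 (adjusted p = 0.00364) in the TgCPEB4∆4 mice and -1.82 (adjusted p = 0.00045) in the CTRL mice. It exceeded the brightest nonspecific control on 2 of 3 TgCPEB4∆4 and 1 of 3 CTRL ELUTED arrays. With the other ELUTED values raised to that control the means were -1.38 and -1.23, so the order of the genotypes reversed. Psmd9, the p27 chaperone of the base, was at -0.01 (adjusted p = 0.956) in the TgCPEB4∆4 mice and -0.16 (adjusted p = 0.277) in the CTRL mice.

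Whether the transgene changed these ratios was asked by the difference of the tail ratios between genotypes. The difference was above 0 for 39 of 43 genes, against 52.6% of all genes tested, and its median was 0.83, against 0.02 for all genes tested. No gene passed the threshold in limma: the lowest adjusted p of the 43 was 0.371, and 0.0% of all genes tested passed. At an unadjusted p under 0.05, 27 of 43 were higher in the TgCPEB4∆4 mice, against 10.9% of all genes tested, and none was lower, against 3.25%. In 24 of 43 every TgCPEB4∆4 mouse lay above every CTRL mouse, against 11.9%, and in none every TgCPEB4∆4 mouse lay below, against 7.36%. The median difference was 1.45 for the alpha ring, 1.27 for the constitutive beta ring, 1.22 for the base ATPases, 0.63 for the other base genes, -0.26 for the inducible beta subunits, 0.91 for the lid, 0.28 for the assembly factors and 0.04 for the activators and inhibitor. Psmb7 had a difference of 3.11 (SE 0.86), and of 2.005 with the ELUTED values under the brightest nonspecific control raised to it; Psmb9 had -0.39 (SE 0.22).

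The size of this difference depended on which CTRL mice entered it. With CTRL mouse 2 as the only control the median was 0.16 and 34 of 43 genes were above 0, with none called. Without CTRL mouse 2, in contrast, 26 genes were called higher and the median was 1.21, and 9.18% of all genes tested were called higher and 1.25% lower. When each mouse was rescaled to the same SD of the tail ratio over all probe sets, the median was 0.34, 35 of 43 were above 0 and none was called. The state of the ELUTED arrays of CTRL mice 1 and 3 moved with the result, and its part in the result was not tested.

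The ELUTED arrays alone gave the same split of mice. ELUTED values were higher in the TgCPEB4∆4 mice for 41 of 43 genes, with a median difference of 0.96, which is a ratio of 1.94, against 56.6% of genes above 0 and a median of 0.08 over all genes tested. None passed limma's threshold, the lowest adjusted p was 0.278, and 0.0% of all genes tested passed. At an unadjusted p under 0.05, 31 were higher, against 15.4% of all genes tested, and none lower, against 2.68%. In 30 every TgCPEB4∆4 mouse lay above every CTRL mouse, against 18.2%, and in 1, Psmg3, below, against 7.64%. With CTRL mouse 2 as the only control the median was 0.32, and without CTRL mouse 2 the count called higher was 25, against 9.5% of all genes tested. In WASH the median difference was 0.07, 33 of 43 genes were above 0, against 56.3% of all genes tested, and none was called, where 0.0% of all genes tested were. Centring the arrays left 21 of 43 above 0 in WASH. At an unadjusted p under 0.05 limma gave 8 genes higher in WASH, against 11.3% of all genes tested, and none lower, against 5.4%. In 14 every TgCPEB4∆4 mouse lay above every CTRL mouse, against 16.1%, and in none below, against 9.2%.

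**Figure D3:**
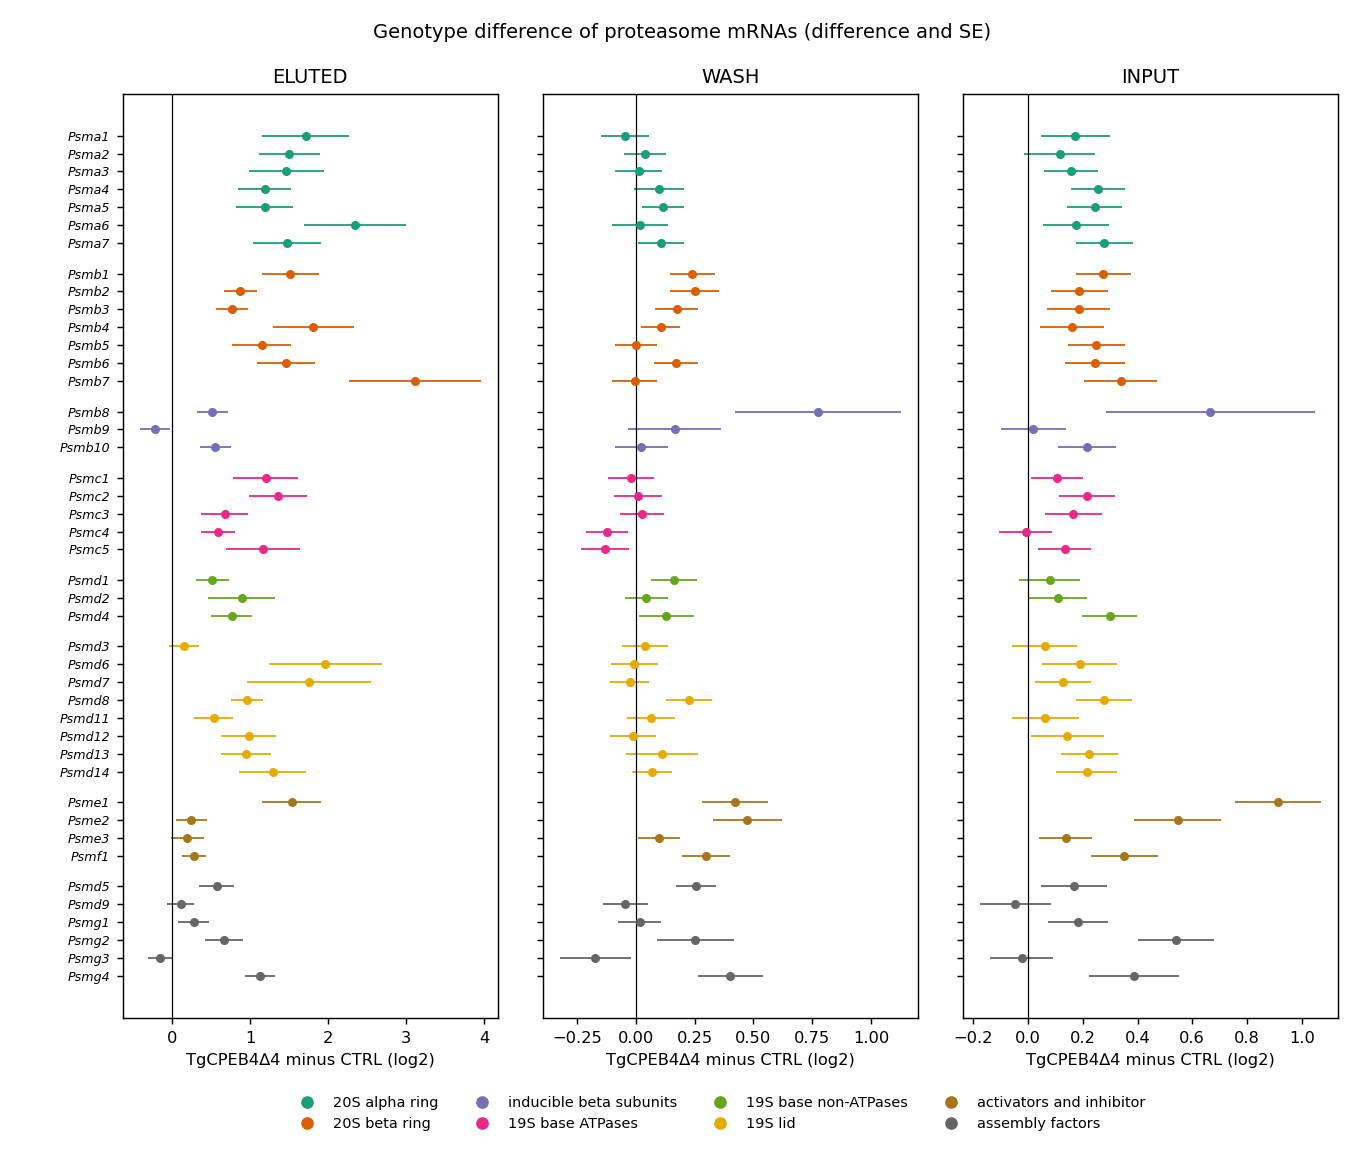
TgCPEB4∆4 minus CTRL in log2 units (horizontal axis, with a scale of its own in each panel) for the 43 proteasome genes in ELUTED, WASH and INPUT; points are the differences of the means of 3 mice, bars the standard errors, and colours the roles. Differences in ELUTED reach 3.11, those in WASH 0.77 and those in INPUT 0.91, and none passed the threshold.

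Set against total RNA, most proteasome genes were below INPUT in ELUTED and close to it in WASH. Both comparisons share arrays with the tail ratio and are no independent support for it. ELUTED minus INPUT had a median of -0.41 in the TgCPEB4∆4 mice and -1.02 in the CTRL mice. In the TgCPEB4∆4 mice limma called none of the 43 genes, against 0.225% of all genes tested called lower and 0.0418% called higher, with 14 lower at an unadjusted p under 0.05, against 10.4%. In the CTRL mice 29 were called lower, against 15.6% of all genes tested, and none higher, against 3.88%; 5 were called lower without CTRL mouse 3, against 2.26%, and 6 with CTRL mouse 2 as the only control, against 1.97%. Among all calls over all genes the share of higher ones in CTRL was 19.9%, and 36.4% after a second quantile normalization. The transgenic count was 9 without CTRL mouse 1, 1 without CTRL mouse 2 and 18 with the TgCPEB4∆4 mice fitted alone, against 6.39%, 0.702% and 8.64% of all genes tested. Psmb7 was at -1.12 (SE 0.62, adjusted p = 0.418) in the TgCPEB4∆4 mice and at -3.89 (SE 0.62, adjusted p = 0.00652) in the CTRL mice, and the CTRL mean was -2.78 with its 2 ELUTED values under the control raised to it.

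WASH minus INPUT was above 0 for 36 of 43 genes in the TgCPEB4∆4 mice and for 41 of 43 in the CTRL mice, but so was the median of all genes tested, at 0.14 and 0.13. The median of the 43 genes was 0.17 in the TgCPEB4∆4 mice and 0.25 in the CTRL mice. In the TgCPEB4∆4 mice 14 were called higher, against 35.5% of all genes tested, and in the CTRL mice 25 were, against 36.3%. None was called lower in either genotype, against 11.9% of all genes tested in the TgCPEB4∆4 mice and 12.5% in the CTRL mice. Centring the arrays took the median of all genes tested to 0.00 and 0.01, left 25 and 35 genes above 0 with 2 and 15 called higher, against 20.2% and 23.7% of all genes tested, and changed the share of higher calls over all genes to 47.4% instead of 74.9% in the TgCPEB4∆4 mice and to 51.5% instead of 74.4% in the CTRL mice. The transgenic count was 8 without TgCPEB4∆4 mouse 2 and 8 without TgCPEB4∆4 mouse 3, against 26.4% and 27.2% of all genes tested. The CTRL count was 15 without CTRL mouse 3 and 1 with CTRL mouse 2 as the only control, against 24.1% and 8.81%. Psmd6 rose in WASH in both genotypes, by 0.52 (adjusted p = 0.00159) in the TgCPEB4∆4 mice and by 0.72 (adjusted p = 0.000204) in the CTRL mice.

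In total RNA, proteasome genes were slightly higher in the TgCPEB4∆4 mice, and no single gene passed the threshold. The difference was above 0 for 40 of 43 genes, against 57.1% of all genes tested, and the median was 0.18, a ratio of 1.14, against 0.03. The lowest adjusted p of the 43 in limma was 0.423, and 0.0% of all genes tested passed. At an unadjusted p under 0.05, 13 were higher, against 8.19% of all genes tested, and none lower, against 3.1%. In 23 every TgCPEB4∆4 mouse lay above every CTRL mouse, against 13.2%, and in none below, against 6.63%. Centring the arrays gave 39 of 43 above 0 with a median of 0.13, and CTRL mouse 2 as the only control gave 40 of 43 with a median of 0.17. By role the median difference was 0.18 for the alpha ring, 0.24 for the constitutive beta ring, 0.13 for the base ATPases, 0.17 for the lid and 0.45 for the activators and inhibitor.

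Psme1 had the largest difference in total RNA. It measured 9.41, 9.05 and 8.81 in the TgCPEB4∆4 mice and 8.12, 8.29 and 8.13 in the CTRL mice. All TgCPEB4∆4 values lay above all CTRL values, by 0.91 on average (SE 0.16, adjusted p = 0.423), and by 0.75 without TgCPEB4∆4 mouse 1. Psmb7 measured 10.52, 10.57 and 10.16 in the TgCPEB4∆4 mice and 10.15, 9.99 and 10.10 in the CTRL mice, again without overlap (difference 0.34, SE 0.13, adjusted p = 0.439). Psme2 measured 7.28, 7.07 and 6.90 in the TgCPEB4∆4 mice and 6.24, 6.66 and 6.72 in the CTRL mice, but on none of the 6 INPUT arrays did it exceed the highest nonspecific control, so no ratio is given. Psmg2 exceeded that control on 2 of 3 TgCPEB4∆4 and on none of the CTRL arrays. With the CTRL values raised to the control, the TgCPEB4∆4 mean was 1.11-fold higher. That mean includes an array under the control, so the value is no strict lower bound. The genotype difference of Psmg2 did not pass the threshold.

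In total RNA Psmb8 was high in 1 mouse. Its INPUT value was 8.68, 7.15 and 7.02 in the TgCPEB4∆4 mice and between 6.77 and 7.09 in the 3 CTRL mice. TgCPEB4∆4 mouse 1 lay above the rest and the other 5 mice overlapped. The difference between the means was 0.67 (SE 0.38, adjusted p = 0.523) and 0.13 without TgCPEB4∆4 mouse 1. Psmb8 exceeded the highest nonspecific control on the INPUT array of that mouse alone, so no ratio is given. In WASH Psmb8 measured 8.90, 7.76 and 7.23 in the TgCPEB4∆4 mice and 7.31, 7.04 and 7.22 in the CTRL mice. TgCPEB4∆4 mouse 1 was again the highest, and TgCPEB4∆4 mouse 2 also lay above all CTRL mice. Psmb9 measured 7.74, 7.44 and 7.65 in INPUT in the TgCPEB4∆4 mice and 7.49, 7.59 and 7.70 in the CTRL mice, with full overlap. Psmb10 measured 9.41, 9.57 and 9.62 in the TgCPEB4∆4 mice and 9.27, 9.28 and 9.41 in the CTRL mice, with a difference of 0.22 (SE 0.11, adjusted p = 0.481).

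TgCPEB4∆4 mouse 1 was also the mouse with the highest levels of interferon and inflammation genes. The mean of 19 such genes in INPUT was 8.10, 6.88 and 6.51 in the TgCPEB4∆4 mice and 6.46, 6.50 and 6.55 in the CTRL mice, and 15 of the 19 were highest in TgCPEB4∆4 mouse 1. Rsad2, an interferon-induced antiviral gene, measured 8.83 there and between 6.21 and 6.52 in the other 5 mice. Microglial markers had means of 9.47, 8.68 and 8.36 in the TgCPEB4∆4 mice and 8.30, 8.29 and 8.25 in the CTRL mice, with 11 of 12 highest in TgCPEB4∆4 mouse 1. Astrocyte markers had means of 10.49, 10.04 and 9.76 in the TgCPEB4∆4 mice and 9.61, 9.62 and 9.60 in the CTRL mice, with 9 of 10 highest in the same mouse. Meningeal and fibroblast markers had means of 8.49, 8.30 and 7.92 in the TgCPEB4∆4 mice and 7.64, 7.74 and 7.74 in the CTRL mice. Other lists went the opposite way: in INPUT 10 of 12 neuron markers and 8 of 9 oligodendrocyte markers were lower in the TgCPEB4∆4 mice, against 5131 of 11974 genes tested. The part of these cells and genes in the proteasome values was not tested. In bulk tissue a change in the number of cells of a type and a change in RNA per cell cannot be told apart.

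**Figure D4:**
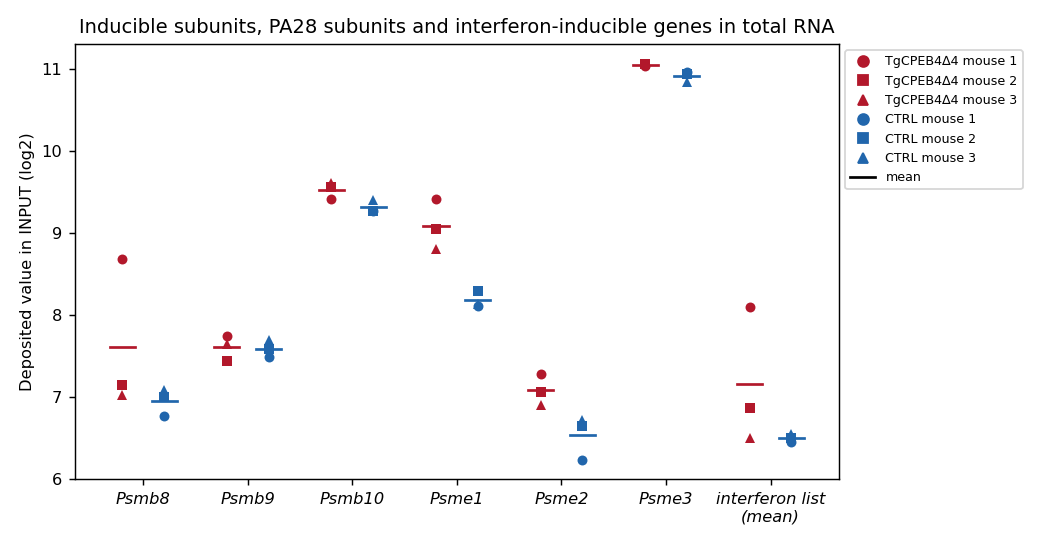
INPUT values in log2 units (vertical axis) of the inducible beta subunits, the PA28 subunits and the mean of 19 interferon and inflammation genes; each point is a mouse and each line the mean of 3 mice, TgCPEB4∆4 at the left and CTRL at the right. TgCPEB4∆4 mouse 1 (red circle) is the highest for Psmb8, at 8.68, and for the interferon list, at 8.10, while Psme1 is higher in all 3 TgCPEB4∆4 mice.

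The promoters of Psmb8, which moved with the interferon genes in 1 mouse, of Psmb9, which did not, and of Psme1, with the largest difference in total RNA, are shown for their sequence. Each is the 250 bases before the annotated start in RefSeq's GRCm38.p6, 5′ to 3′ on the strand of the gene. They lie at chr17:34197945-34198194 (plus strand), chr17:34187331-34187580 (minus strand) and chr14:55578244-55578493 (plus strand). Capitals mark matches to the interferon-stimulated response element (ISRE, searched as GAAA, any 2 bases, GAAA), TTCNNNGAA (gamma-activated site, GAS) and TGACNNNGC (antioxidant response element, ARE).
Psmb8: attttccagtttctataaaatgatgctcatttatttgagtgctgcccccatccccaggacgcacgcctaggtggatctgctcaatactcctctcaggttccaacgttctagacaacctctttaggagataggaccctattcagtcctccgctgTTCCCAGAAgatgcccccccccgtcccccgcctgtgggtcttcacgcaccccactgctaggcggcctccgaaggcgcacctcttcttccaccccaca
Psmb9: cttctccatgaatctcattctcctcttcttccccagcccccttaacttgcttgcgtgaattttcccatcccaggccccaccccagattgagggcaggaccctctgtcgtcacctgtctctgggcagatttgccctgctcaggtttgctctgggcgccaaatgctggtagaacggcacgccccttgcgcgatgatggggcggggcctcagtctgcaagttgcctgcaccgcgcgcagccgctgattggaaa
Psme1: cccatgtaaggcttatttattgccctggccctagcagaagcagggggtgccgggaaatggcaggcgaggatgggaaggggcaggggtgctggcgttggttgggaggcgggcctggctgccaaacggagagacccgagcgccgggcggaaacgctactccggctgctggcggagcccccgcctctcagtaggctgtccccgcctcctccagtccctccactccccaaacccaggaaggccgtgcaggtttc

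In the Psmb8 window the letters TTCCCAGAA match the GAS motif, with the first base 97 bases before the start. The windows of Psmb9 and Psme1 hold none of the 3 motifs. Both strands were searched, and a match is a description of letters only.

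Among the 36 of 43 proteasome genes with a promoter in the table, 2 held the GAS motif, which is 5.56%, against 8.13% of the 27025 genes in that table. The ISRE was found in 3, or 8.33%, against 3.46%, and these were Psmb3, Psmd4 and Psmd9, none of them an inducible subunit. The ARE, the motif bound by the transcription factor NRF2, was found in 4, or 11.1%, against 11.5%. Its 4 genes were Psmb5, Psmb6, Psmd12 and Psmd9. CCAAT was found in 12, or 33.3%, against 37.5%. All these shares count a gene once if any of its annotated starts held the motif, and the ISRE share rests on 3 genes.

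Genes that work with the proteasome but carry other symbols were read from lists of the pathway. Of 7 tested proteasome-bound factors, 4 were called lower in ELUTED than in WASH in the TgCPEB4∆4 mice and 6 in the CTRL mice, where 20.5% and 39.9% of all genes tested were. Sem1, a small lid subunit, was called in both, at -1.57 (adjusted p = 0.00318) in the TgCPEB4∆4 mice and -2.36 (adjusted p = 0.00045) in the CTRL mice. Pomp, the chaperone that matures the core, was called in both, at -1.18 (adjusted p = 0.0225) and -2.62 (adjusted p = 0.000587). Usp14, a deubiquitinase bound to the base, had tail ratios of -0.73, -0.79 and -0.22 in the TgCPEB4∆4 mice and -4.10, -1.18 and -2.002 in the CTRL mice. Its fit gave -0.58 (adjusted p = 0.334) in the TgCPEB4∆4 mice and -2.43 (adjusted p = 0.00261) in the CTRL mice. Ube3c, a ubiquitin ligase that binds the proteasome, was near 0, at -0.16 (adjusted p = 0.345) and -0.05 (adjusted p = 0.732).

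Of 7 tested shuttle and segregase genes, 1 was called lower in the TgCPEB4∆4 mice, and 5 lower and 1 higher in the CTRL mice, against 20.5%, 39.9% and 20.5% of all genes tested. The 1 higher was Ubqln2, a shuttle that carries ubiquitinated proteins to the proteasome, at 0.31 (adjusted p = 0.254) in the TgCPEB4∆4 mice and 1.08 (adjusted p = 0.0026) in the CTRL mice. Its relative Ubqln1 was -0.42 (adjusted p = 0.555) in the TgCPEB4∆4 mice and -2.20 (adjusted p = 0.0077) in the CTRL mice. Of 2 tested regulators of proteasome genes, Ngly1, an enzyme that removes sugars from the regulator NRF1, was lower in ELUTED in both genotypes, at -0.69 (adjusted p = 0.0286) and -1.03 (adjusted p = 0.00262). Nfe2l1, which encodes NRF1, was -0.26 (adjusted p = 0.167) in the TgCPEB4∆4 mice and -0.28 (adjusted p = 0.0981) in the CTRL mice.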

How the data were processed

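RNA of 6 mice was measured on 18 perfect-match microarrays, 1 for each mouse and preparation. The log2 values were deposited as the authors made them, by RMA per the submitters' processing notes, which includes background correction and quantile normalization; a further scaling by the authors is not stated. RMA normalization is meant to give arrays a similar distribution, so a change shared by most mRNAs cannot be read from these values. The deposited arrays still differed. The SD over all probe sets was 1.704 to 1.909 in ELUTED and 1.944 to 2.001 in WASH. The median level of all genes tested was 7.69 to 8.07 in ELUTED and 8.16 to 8.29 in WASH. The part of this offset in the tail ratios was not tested. Genes were named from GEO's platform annotation: 28898 probe sets name 1 gene, 551 several and 15588 none, and 104 control probe sets were left out.

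Probe sets whose mean over 18 arrays exceeded the 40th percentile were tested (27022), and the probe set with the highest mean stood for each gene. Preparations were compared as differences within a mouse, since a mouse number within a genotype is 1 animal per the labels, and genotypes as differences of means, with limma 3.58.1 (lmFit and eBayes, two-sided, R 4.3.3) and Benjamini-Hochberg adjustment over all tested probe sets at 0.05. Both genotypes shared 1 estimate of the spread. The code was tested on simulated data. All p-values named adjusted p come from limma. With 3 mice a group, their number limits the precision.

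The members, lists and tests were chosen with earlier results of these data known. The genes named are, in each role, those with the lowest and highest mean tail ratio, plus the catalytic, inducible and PA28 subunits; Psmd8, Psmd14, Psmg2, Psmg3, Rsad2 and the pathway genes named were chosen after their values were seen. Promoters were matched for 36 of 43 genes by symbol to RefSeq's table for GRCm38.p6. Alternatives were other filters, scalings, probe set rules, spread estimates, blocks and left-out mice. For Psma6, Psmb7, Psmb8, Psmd6, Psme1, Psme2, Psmg2 and Psmg4, ELUTED values under the brightest nonspecific control of their array were also raised to it. This bound was chosen after the data were seen. Psmc6, Psmd10, Psme4 and Psme2b were not analysed here.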

Additional observations from a re-analysis of the deposited data

Results flagged for a closer look

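Psmc2, the Rpt1 ATPase of the base, had WASH minus INPUT differences of opposite sign in the 2 genotypes. It measured -0.25, -0.04 and -0.05 in the TgCPEB4∆4 mice and 0.01, 0.11 and 0.15 in the CTRL mice. The means were -0.11 and 0.09, and they differed by -0.21 (TgCPEB4∆4 minus CTRL). It was singled out because all mice of a genotype shared a sign and the genotypes had opposite signs, and the difference itself was not tested. These signs are not relative to the other genes. The median of all genes tested was 0.14, 0.08 and 0.15 in CTRL mice 1, 2 and 3. Psmc2 stood at percentile 35.1, 53.4 and 50.9 there and at 12.6, 32.2 and 28.1 in the TgCPEB4∆4 mice. Relative to that median, CTRL mouse 1 lay on the side of the TgCPEB4∆4 mice. How many genes share such a pattern was not counted.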

How the results depend on the processing

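Of the counts and medians of proteasome genes, 254 values under alternatives kept their side and direction, 10 moved, 10 grew past the threshold or limit, 17 fell short of it and 1 reversed; of the single-gene values 812 kept theirs, 22 newly passed, 40 no longer passed and 24 reversed. Where no cause is named, it was not tested. For ELUTED minus WASH in the TgCPEB4∆4 mice, the count of 14 was 8 after a second quantile normalization (median -0.363). It was 32 with the genotype fitted alone and 32 after rescaling each mouse (median -0.805). Of all 27022 probe sets tested, these 3 settings called 4986, 14521 and 16523 in either direction. Centring gave a median of -0.425, and leaving out mice gave counts of 0 to 25. In the CTRL mice the count of 38 was 22 with CTRL mouse 2 as the only control. The genotype difference of the tail ratio had a median of 0.162 with CTRL mouse 2 as the only control, and leaving out mice gave 0 to 26 calls. For ELUTED minus INPUT, the TgCPEB4∆4 count of 0 was 18 with the genotype fitted alone, 7 with no replicate block and 0 to 9 with a mouse left out; the CTRL count of 29 was 6 with CTRL mouse 2 as the only control, 8 alone and 5 to 32 with a mouse left out. For WASH minus INPUT, the TgCPEB4∆4 count of 14 was 5 after quantile normalization (median 0.068), 2 after centring (median 0.04), 0 with no replicate block and 8 to 12 with a mouse left out. Of all 27022 probe sets, quantile normalization called 11546 in either direction, centring 13356 and no replicate block 4208. In the same order the CTRL count of 25 was 13 (median 0.167), 15 (median 0.141), 1 and 15 to 26. There quantile normalization called 12457 of all probe sets, centring 13966 and no replicate block 4156. With CTRL mouse 2 as the only control the CTRL median was 0.194. The ELUTED genotype median was 0.316 with CTRL mouse 2 as the only control, leaving out mice gave 0 to 25 calls, and the WASH median reversed to -0.004 after centring.

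Among single genes, the TgCPEB4∆4 tail ratio reversed for Psmd11 (0.094 after quantile normalization, 0.063 after centring), Psmd9 (0.126, 0.168, 0.0 after rescaling), Psme1 (0.076 after quantile normalization) and, with a mouse left out, Psmb9 (-0.045 to 0.305) and Psmd9 (-0.069 to 0.081). The CTRL tail ratio reversed for Psmd9 (0.029 after centring) and Psme3 (-0.303 as the mean of its probe sets, -0.077 to 0.236 with a mouse left out). The INPUT genotype difference, near 0 for these genes, reversed for Psmb9 (-0.027 after quantile normalization, -0.033 after centring, -0.1 as the mean of probe sets, -0.046 to 0.105 with a mouse left out), Psmc4 (0.042 as the mean of probe sets, -0.035 to 0.009), Psmd11 (-0.005 to 0.145) and Psmd9 (-0.114 to 0.07). A second quantile normalization gave a share of higher calls over all genes of 40.5% and 45.3% for the tail ratio and 62.1% and 61.5% for WASH minus INPUT, TgCPEB4∆4 and CTRL. The mouse numbers do not pair the genotypes: deviations of same-numbered mice in INPUT correlated at 0.09, -0.042 and 0.258, and the replicate block across genotypes called 0 genes in ELUTED, WASH and INPUT.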

Other observations

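Probe sets of the same gene did not always share the sign of the tail ratio. Psmd4 had a probe set at 0.56 (adjusted p = 0.0203) in the TgCPEB4∆4 mice and 0.55 (adjusted p = 0.00906) in the CTRL mice, against -0.69 and -1.32 for the one with the highest mean. Psmf1, the PI31 inhibitor, had a probe set at 0.43 (adjusted p = 0.0482) in the TgCPEB4∆4 mice and 0.86 (adjusted p = 0.00158) in the CTRL mice, against -0.16 and -0.15. In the CTRL mice Psmd7 had a probe set at 0.62 (adjusted p = 0.0131, limma), against -1.97 for the one with the highest mean. Psmd11 had one at 0.67 (adjusted p = 0.0225, limma) in these mice, against -0.58. Both genes count among the lid genes called lower in the CTRL mice. In the TgCPEB4∆4 mice these 2 probe sets were at 0.29 and -0.11 and were not called. Which part of the transcript each probe set reads was not examined.

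The 2 genes that match by name only had tail ratios of -0.29 in the TgCPEB4∆4 mice and -0.68 in the CTRL mice for Psme3ip1, and of 0.18 and 0.23 for Psmc3ip.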
